A study of Mus musculus with 17 samples.

Results

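Mouse small intestinal organoids were moved from a medium that keeps stem cells dividing into one that drives secretory differentiation, and the libraries taken on days 2, 3 and 4 after the change were compared with those of days 0.25 and 1. The libraries were chosen by their labels as the untreated ENR+CD libraries of these days, which gave 5 of the 17 libraries of the series and 6398 of its 19877 kept cells. The early phase comprised 2 libraries with 1141 cells at day 0.25 and 806 at day 1. The commitment phase comprised 3 libraries with 1430 cells at day 2, 1474 at day 3 and 1547 at day 4.

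All organoids were grown from crypts of wild-type C57BL/6 mice in ENR, that is EGF, Noggin and R-spondin 1, and all had first been kept in ENR+CV, which adds the glycogen synthase kinase inhibitor CHIR99021 and valproic acid. At day 0 the additives were changed to CD, CHIR99021 with DAPT, a gamma-secretase inhibitor that blocks Notch cleavage, and both phases carried CD. Libraries of the same days with added KPT-330, an inhibitor of the nuclear export receptor XPO1 given at 160 nM, and the untreated libraries of day 0 (ENR+CV) and day 6 (ENR+CD) were used only beside the contrast. Each library was made from pooled organoids by Seq-Well S3, in which each cell is lysed in a small well with a bead whose barcode marks its messenger RNA, and molecules are counted by unique molecular identifiers (UMIs). The mice were between 1 and 6 months old and of both sexes according to the methods, and no label ties a library to an animal.

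In the crypt, Lgr5-positive stem cells are maintained by Wnt and Notch signals. When Notch signalling is lost, the transcription factor Atoh1 is released from repression and progenitors leave the cycle for the secretory lineages, namely Paneth cells that store antimicrobial peptides, mucus-producing goblet cells and hormone-producing enteroendocrine cells. Absorptive enterocytes arise from progenitors in which Notch remains active. Wnt signals also promote the maturation of Paneth cells.

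The labels also number the libraries, and this number was 1 in both early libraries and 2 in all 3 commitment libraries, so that phase and number cannot be told apart within the contrast. The count of genes listed differed between the phases, whereas depth and mitochondrial share overlapped. The 2 early libraries listed 21001 and 21652 genes, whereas the 3 commitment libraries listed 16616, 17422 and 17292, although the total UMIs of kept cells overlapped (7982400 and 4912283 against 10244387, 8022498 and 7014259). Median UMIs per cell were 5574 and 4596.5 in the early and 6042.5, 4550.5 and 3911 in the commitment libraries (exact permutation test, two-sided p = 0.8, where 2 against 3 libraries can give no p under 0.2). The median over cells of the share of UMIs from mitochondrially encoded genes was 12.7% and 14.4% against 13.5%, 12.1% and 9.34% (exact permutation p = 0.4). Days 0 and 6 had 1 untreated library of each number, and their values are given below beside results that they touch, with the number 1 library first. These libraries listed 21020 and 16266 genes at day 0, but 17849 and 16519 at day 6, so long gene lists did not mark every number 1 library. The spread within a phase came from different days, each with a single library, and no 2 libraries shared more than 1 cell barcode.

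Levels are given as UMIs of a gene per 1000000 UMIs of the library (CPM), after summing over its kept cells. On these sums, 12493 genes were tested by edgeR's quasi-likelihood test, and a gene was called when its Benjamini-Hochberg adjusted p over all of them was under 0.05. Commitment libraries were higher for 1161 genes (9.29% of those tested) and lower for 1498 genes (12.0%), and the median log2 fold change over all genes tested was 0.00. The 2 phases did not overlap for 59.2% of all genes tested, so a lack of overlap alone was common. The calls rested on few libraries, since no gene was called when day 0.25, day 3 or day 4 was left out, although 1315, 1549 and 1809 genes were then higher at an unadjusted p under 0.05. When the untreated libraries of days 0 and 6 were added with the number as a term, edgeR called 0 genes, with 1331 higher and 1496 lower at an unadjusted p under 0.05. With all 17 libraries, those with KPT-330 included, and the number as a term, 658 genes were called higher (5.07%) and 746 lower (5.75%). These limits hold for every count of calls below, and counts given for the 17-library fit stand beside 0 calls in the 9-library fit.

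Among the 1161 genes called higher, the level was highest at day 4 for 796, at day 3 for 277 and at day 2 for 88. The level increased in order of day from day 2 to day 4 for 684 of them (58.9%), was at least doubled between day 2 and day 4 for 252 and was reduced to 50% or less for 26. Day 1 lay between day 0.25 and all later days for 1022 of the genes called higher (88.0%) and for 1387 of the 1498 genes called lower (92.6%). In bulk sums of this kind, a change in the number of cells of a type and a change in RNA per cell cannot be told apart.

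**Figure D1:**
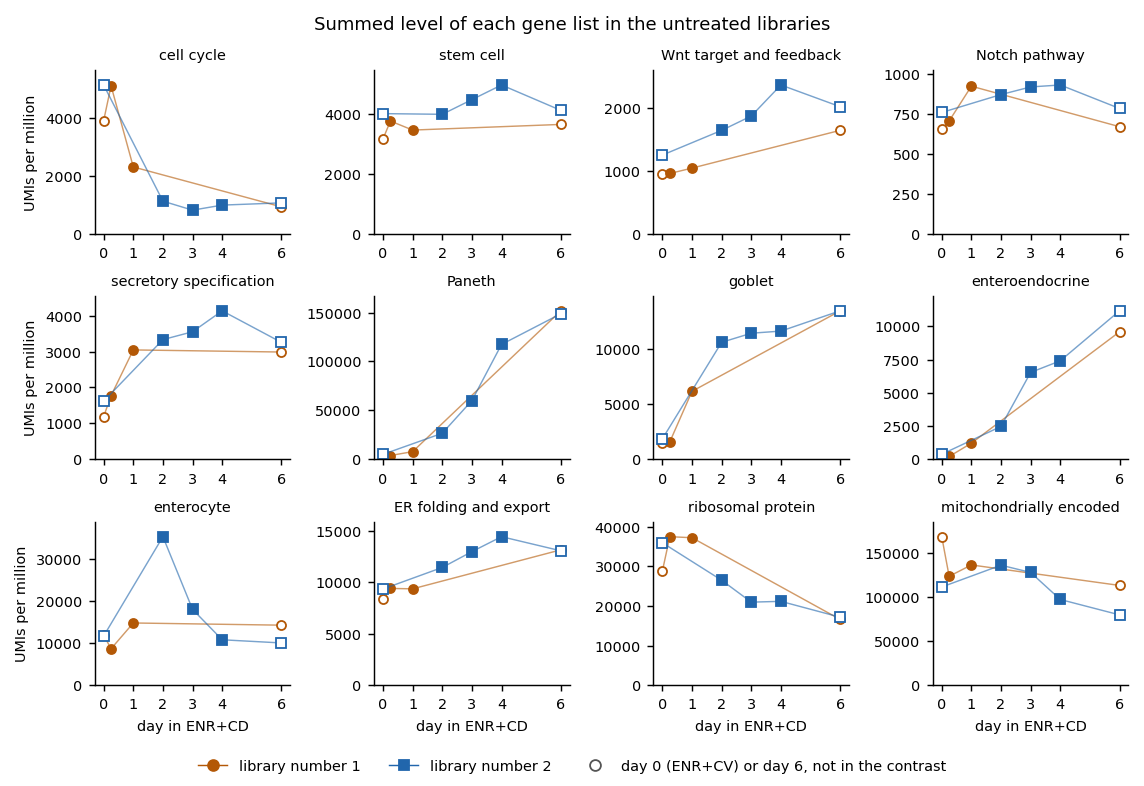
Summed level of 12 gene lists in CPM (y axis, linear) against day (x axis) in the 9 untreated libraries, where orange circles are libraries numbered 1, blue squares are libraries numbered 2, lines join libraries of 1 number, filled symbols are the 5 libraries compared and open symbols are days 0 and 6. The Paneth list climbed from 3945 at day 0.25 to 117394 at day 4, the cell cycle list went from 5095 to 979.9, and the enterocyte list was highest at day 2 at 35302.

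The genes of the cell division machinery fell together. Of 33 cell cycle genes, all were tested, 31 were called lower and none was called higher, with a median log2 fold change of -1.97. The summed level of the list was 5095 CPM at day 0.25 and 2296 at day 1, then 1116, 806 and 979.9 at days 2, 3 and 4. The first step thus lay within the early phase, between 2 libraries of the same number, and the day 0 libraries stood at 3895 and 5124. The 33 genes had negative estimates also with all 17 libraries and the number as a term, where 21 were called lower.

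Gene positions here and below are from GENCODE on GRCm38. Mki67 (chr7:135689784-135716361, minus strand), a marker of cycling cells, had 1499.5 and 548 CPM in the early libraries and 239, 138 and 191 in the commitment libraries. Its log2 fold change was -2.52 (SE 0.45, edgeR adjusted p = 0.0239), and its day 0 levels of 998 and 1409.5 were both far above those of days 2 to 4. Top2a, the topoisomerase that untangles chromosomes, went from 398 and 157 to 61.2, 51.5 and 57.7 (log2 fold change -2.37, SE 0.37, edgeR adjusted p = 0.0239). The 3 commitment libraries lay close together for both genes, whereas the 2 early libraries were well apart.

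Several division genes were among the 10 largest decreases of called genes with a mean of at least 50 CPM in the higher phase. Birc5, the chromosomal passenger protein survivin, had 126 and 39.1 CPM early and 16.7, 9.60 and 9.69 later, 7.24-fold lower in the fit. Ccna2, cyclin A, had 206 and 68.8 against 26.9, 19.4 and 17.5, which was 6.81-fold lower. Rrm2, the small subunit of ribonucleotide reductase, had 103 and 43.0 against 15.1, 14.3 and 10.1, a 5.83-fold decrease. The genes Pbk, Spc24 and Cdca3, all expressed in dividing cells, belonged to the same group, with log2 fold changes of -2.77, -2.69 and -2.54. Among called genes with at least 100 CPM early, Cdca3, Birc5, Ccna2 and Tuba1b, a tubulin, were selected with Rpph1 for the lowest ratios of day 1 to day 0.25, which were 0.304, 0.310, 0.333 and 0.357 for these 4.

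Promoters of genes expressed late in the cell cycle often carry CCAAT boxes, which bind NF-Y, and a cell cycle homology region, which recruits the DREAM complex and B-Myb. In RefSeq promoter windows of GRCm38.p6, which span 250 bases before to 50 bases after the start, CCAAT on either strand was present for 22 of the 26 cell cycle genes with a window (84.6%), compared with 39.5% of the 9241 tested genes with a window and 37.9% of all 27025 windows. CCAAT was not particular to this list. It was present for 21 of the 31 genes of endoplasmic reticulum folding and export (67.7%), which rose, and for 9 of the 13 immediate early and heat shock genes (69.2%). The letters TTTGAA were present for 12 of the 26 cell cycle genes (46.2%), compared with 11.4% and 18.1%. They were also present for 4 of 15 Paneth (26.7%), 7 of 32 enteroendocrine (21.9%) and 9 of 41 enterocyte genes (22.0%), and for 0 of 17 stem cell genes. A match gives the letters only and no binding was measured. The 200 bases before the start of Hmgb2 (chr8:57511643-57511842, plus strand) and Top2a (chr11:99024190-99024389, minus strand) are shown because they were among 6 called members of the list that held both motifs, with the matches on either strand in capitals.
Hmgb2: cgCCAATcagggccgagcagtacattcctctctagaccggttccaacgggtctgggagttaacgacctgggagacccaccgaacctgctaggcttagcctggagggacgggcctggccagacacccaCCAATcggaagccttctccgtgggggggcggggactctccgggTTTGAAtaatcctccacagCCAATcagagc
Top2a: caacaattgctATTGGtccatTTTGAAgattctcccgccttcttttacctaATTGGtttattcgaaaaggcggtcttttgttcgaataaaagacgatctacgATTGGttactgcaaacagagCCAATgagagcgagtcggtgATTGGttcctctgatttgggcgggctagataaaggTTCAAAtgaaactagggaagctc
The Hmgb2 window held CCAAT at 198, 73 and 11 bases before the start and TTTGAA at 30 bases before it, and Top2a held 5 CCAAT matches, 4 of them on the other strand and written here as ATTGG. Hmgb2, a chromatin protein of proliferating cells picked here for its promoter, had 89.2 and 40.9 CPM in the early and 17.4, 13.3 and 14.1 in the commitment libraries (log2 fold change -2.20, SE 0.34, edgeR adjusted p = 0.0239).

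Stem cell genes moved in both directions. Of 23 listed, 9 were called higher and 3 lower, against 9.29% and 12.0% of all genes tested, with a median log2 fold change of 0.06. Their sum was 3749.5 and 3449 CPM early and 3974, 4464 and 4952 later, so that the phases did not overlap, and the day 0 libraries held 3155 and 3997. The 3 that fell were Olfm4, Cdca7 and Cd44. Olfm4, a stem cell marker that depends on Notch, fell from 22.8 and 11.8 CPM to 4.00, 6.61 and 3.85 (log2 fold change -1.93, SE 0.39, edgeR adjusted p = 0.0256). Lgr5 (chr10:115450311-115587780, minus strand), the R-spondin receptor that marks crypt stem cells, rose instead, from 112 and 125 to 233, 249 and 285 (log2 fold change 1.03, SE 0.16, edgeR adjusted p = 0.0239). The direction of Lgr5 went with the number as well, because at day 0 the libraries held 80.3 and 159, and with all 17 libraries and the number as a term its log2 fold change was 0.74 (edgeR adjusted p = 0.0952). With KPT-330 the same contrast gave 0.04 (edgeR adjusted p = 0.916). Ascl2, a transcription factor of stem cells, was not called, with 16.8 and 12.6 against 16.5, 15.2 and 31.2.

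Genes induced by Wnt signals were largely called higher, 12 of 17 tested against 1 lower (Cd44, a hyaluronan receptor, from 98.3 and 58.6 to 31.4, 35.8 and 34.6 CPM), with a median log2 fold change of 1.03, and the list shares Lgr5 and other members with the stem cell list. Nkd1, a feedback inhibitor of Wnt, had 17.4 and 52.3 CPM early and 215, 229.9 and 384 later (log2 fold change 2.92, SE 0.49, edgeR adjusted p = 0.0239), and its 2 day 0 libraries were alike at 22.5 and 24.0. Notum, an extracellular enzyme that inactivates Wnt ligands, was close to the detection limit early at 0.125 and 0.204, and reached 3.32, 8.60 and 31.4 (edgeR adjusted p = 0.0295). Notum was 9.45 times as high at day 4 as at day 2 (exact 95% interval 6.56 to 14.0, which covers counting error only). Axin2, the widely used Wnt reporter gene, had a smaller increase from 199.9 and 219.9 to 319, 355 and 414 (log2 fold change 0.71, SE 0.18, edgeR adjusted p = 0.036), and its number 2 library was 1.32 times its number 1 library at day 0. In the 17-library fit, 7 of the 17 genes were called higher and none lower.

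**Figure D2:**
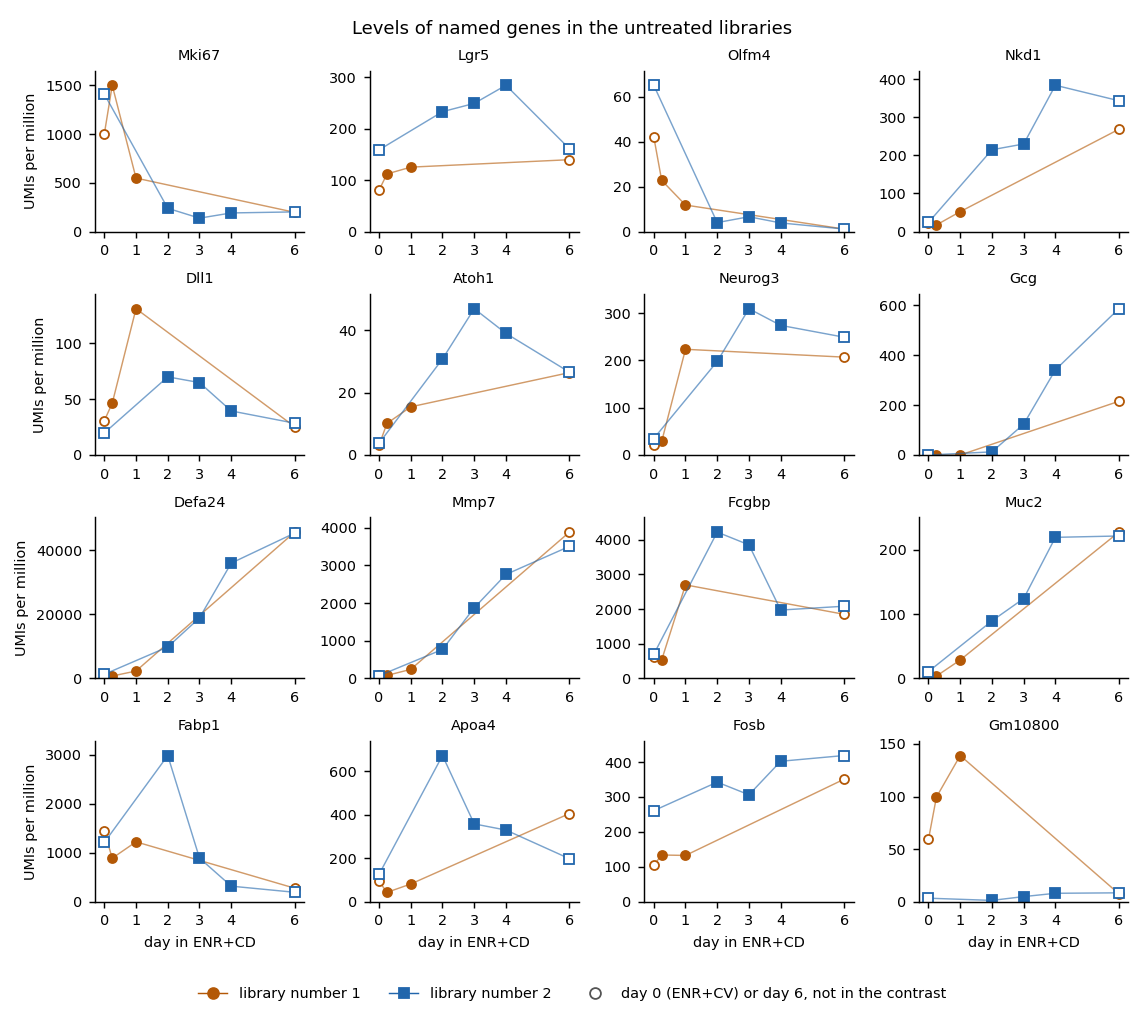
Levels of 16 genes in CPM (y axis, linear, its own scale in each panel) against day (x axis) in the 9 untreated libraries, with the number 1 libraries as orange circles, the number 2 libraries as blue squares and open symbols for days 0 and 6. Mki67 had dropped to 548 at day 1, Atoh1 was highest at day 3 at 47.0, Fabp1 was highest at day 2 at 2980.2 and Gcg had no UMI at days 0.25 and 1.

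Of 20 tested genes of the Notch pathway itself, 2 were called higher and 2 lower, with a median log2 fold change of 0.11. These counts were close to the 9.29% and 12.0% called over all genes tested, so the list did not stand out. Those called were the ligand gene Dll3 and the gamma-secretase subunit gene Ncstn, both higher, and the receptor gene Notch2 and the regulator gene Dtx4, both lower, with log2 fold changes of 2.97, 0.55, -0.85 and -0.59. Hes1, the main target of active Notch, had 82.1 and 108 CPM at day 0 and was already at 48.9 at day 0.25. It then stayed at 44.8, 50.6, 39.6 and 41.9 on days 1 to 4 (log2 fold change -0.16, SE 0.18, edgeR adjusted p = 0.527). Dll1, a Notch ligand made by early secretory cells, was highest at day 1, with 46.2 and 131 in the early and 69.8, 64.7 and 39.3 in the commitment libraries. Dll4, the other ligand of these cells, had 26.7 and 73.5 early and 67.3, 109 and 119 later and was not called either (edgeR adjusted p = 0.15).

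Of the 22 genes of secretory specification, 10 were called higher and none lower, with a median log2 fold change of 1.02. The 17-library fit called 5 of them, against 5.07% of all genes tested there called higher. Atoh1 (chr6:64729125-64731245, plus strand), the master regulator of the secretory fate, had 3.12 and 3.74 CPM at day 0, 10.1 and 15.5 in the early libraries and 30.8, 47.0 and 39.1 in the commitment libraries (log2 fold change 1.54, SE 0.27, edgeR adjusted p = 0.0239). Gfi1, its target that separates goblet and Paneth from enteroendocrine progenitors, rose from 2.00 and 8.35 to 21.7, 18.2 and 19.2 (log2 fold change 1.94, SE 0.52, edgeR adjusted p = 0.0405). Spdef, which drives goblet and Paneth maturation, had 14.9 and 60.3 against 97.8, 91.6 and 132 and was not called (edgeR adjusted p = 0.0781). Sox9, needed for Paneth cells, rose from 89.6 and 113 to 207, 208 and 293 (log2 fold change 1.14, SE 0.21, edgeR adjusted p = 0.0239).

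Paneth cell products showed the strongest rise of the 4 differentiated lineages by list median. Of 49 listed genes 33 were in the files, 29 were tested, 23 were called higher and none lower, with a median log2 fold change of 3.73. Their summed level was 3945 and 7888 CPM at days 0.25 and 1 and 26678, 60073 and 117394 at days 2, 3 and 4. It continued to 151731 and 148723 in the 2 day 6 libraries, whereas the day 0 libraries held 3525 and 5142. In the 17-library fit with the number as a term 21 of the 29 were called higher, and in the 9-library fit edgeR called none, with 26 higher at an unadjusted p under 0.05.

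Defa24 (chr8:21734494-21735471, plus strand), an alpha-defensin that kills bacteria, had 747 and 2311 CPM early and 9830.5, 18919 and 36029.5 later (log2 fold change 3.73, SE 0.79, edgeR adjusted p = 0.0267). Lyz1, the Paneth cell lysozyme, had 1039 and 1609.8 against 4070.0, 7701 and 13619.8 (log2 fold change 2.58, SE 0.56, edgeR adjusted p = 0.0277). Mmp7, the protease that activates alpha-defensins, had 78.7 and 241 against 769, 1876 and 2762 (log2 fold change 3.41, SE 0.69, edgeR adjusted p = 0.0254). The levels of these 3 genes increased at each day from day 0.25 to day 4, and none of the phases overlapped. The alpha-defensin genes are near-identical copies, and so are Lyz1 and Lyz2, so how reads were split among members of each family is uncertain.

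Some Paneth genes came late within the commitment phase. Ang4, an antimicrobial ribonuclease, had 104 and 83.9 CPM at days 0.25 and 1, 268 at day 2, 1106 at day 3 and 2989.9 at day 4, and was 11.1 times as high at day 4 as at day 2 (exact 95% interval 10.7 to 11.6). The defensin genes Gm14851 and Defa22 gave ratios of 9.82 and 9.34, against 3.67 for Defa24 and 3.35 for Lyz1. Pnliprp2, a lipase, had 7.64 and 18.7 early and 109.7, 268 and 625 later (log2 fold change 4.59, SE 0.81, edgeR adjusted p = 0.0239). It was among the 10 largest increases of called genes with a mean of at least 50 CPM in the higher phase.

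TCF and LEF factors, which carry the Wnt signal to DNA, recognise CTTTGAT. These letters on either strand were present in 4 of the 15 Paneth list genes with a window (26.7%), compared with 2.45% of the tested genes and 3.72% of all windows. They were present in 1 of the 12 Wnt target and feedback genes with a window (8.33%) and in 0 of the 17 stem cell genes. The called members that held the motif in the 200 bases before the start were Defa21 (chr8:21025345-21025544, plus strand) and Defa22 (chr8:21162077-21162276, plus strand), and these 200 bases were identical, so they are shown once and the 2 genes are not separate instances. The capitals mark the motif, which lies on the other strand.
Defa21 and Defa22: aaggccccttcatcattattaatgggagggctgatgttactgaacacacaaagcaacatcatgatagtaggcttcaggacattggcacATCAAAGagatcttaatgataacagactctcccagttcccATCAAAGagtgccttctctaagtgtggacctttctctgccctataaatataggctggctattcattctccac
The matches began 112 and 72 bases before the start. Defa21, picked here for its promoter, had 25.4 and 35.8 CPM early and 78.8, 318 and 649 later, and Defa22 had 19.0 and 34.6 and then 69.1, 293 and 646. The levels of the 2 copies ran side by side at each day, but how reads were split between them is uncertain.

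Goblet genes were called higher in 12 of 24 tested cases and lower in 1 (Muc4, a membrane-bound mucin, from 62.4 and 48.2 to 22.8, 27.5 and 33.9 CPM), with a median log2 fold change of 1.88. The 17-library fit called 7 of the 24 higher, against 5.07% of all genes tested there. Their summed level had already climbed by day 1, at 1575 and 6144 CPM in the early libraries, and was 10569.5, 11390.5 and 11583 in the commitment libraries. Muc2, the main intestinal mucin, had 3.63 and 28.7 early and 89.6, 124 and 219.7 later (log2 fold change 3.14, SE 0.78, edgeR adjusted p = 0.0354). Agr2, a disulfide isomerase needed to fold mucin, rose from 76.2 and 268 to 519.7, 656 and 715 (log2 fold change 1.81, SE 0.49, edgeR adjusted p = 0.042), although its day 0 libraries also differed, at 31.0 and 98.8.

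Not all goblet products followed this course. Tff3, a trefoil peptide of mucus, had 317 and 1705 against 2472, 2833 and 3993 CPM and was not called (edgeR adjusted p = 0.123). Fcgbp, a mucus-binding protein, had 532 and 2697 early and 4218, 3849.9 and 1971 later, so that day 4 lay under day 1 and the phases overlapped (edgeR adjusted p = 0.305). Zg16 and Clca3, a lectin and a calcium-activated chloride channel regulator of goblet cells that were picked after their values were seen, were present at days 2 and 3 and nearly gone at day 4. Zg16 had 21.9 and 23.0 early and 60.3, 40.8 and 0.428 later, and Clca3 had 2.25 and 10.4 and then 76.4, 33.4 and 2.42. Neither was called, and both were found again at day 6, where Zg16 stood at 9.57 and 6.99.

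Enteroendocrine genes rose next to the Paneth genes in size, with 21 of 39 tested called higher, none lower and a median log2 fold change of 2.74. The list sum was 215 and 1217 CPM early and 2477, 6538 and 7410.5 later. In the 17-library fit 4 of the 39 were called higher, against 5.07% of all genes tested there, and the median log2 fold change was 2.85. Neurog3, the transcription factor that starts endocrine differentiation, was already high at day 1, with 28.6 and 223 early and 198, 309 and 274 later, and was not called (edgeR adjusted p = 0.33). Its target Neurod1 had 10.3 and 61.5 against 77.9, 170.1 and 137 (edgeR adjusted p = 0.0958). At day 1 Neurog3 thus lay within the range of the commitment libraries, at 223 CPM against 198 to 309.

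Hormone genes were among the 10 largest increases of called genes with a mean of at least 50 CPM in the higher phase. Gcg (chr2:62474530-62483650, minus strand), which encodes glucagon-like peptides, had 0 UMIs in both early libraries and 129, 992 and 2395 UMIs at days 2, 3 and 4, or 12.6, 124 and 341 CPM. Set against 3 UMIs in the early libraries together, the level of the commitment libraries pooled was at least 598-fold higher. Gcg was 27.1 times as high at day 4 as at day 2 (exact 95% interval 22.7 to 32.6). Gip, the gastric inhibitory polypeptide, had 6 and 0 UMIs early and 334, 511 and 1309 later (edgeR adjusted p = 0.0239), and Pyy, peptide YY, had 0 and 1 and then 79, 180 and 426. Cck, cholecystokinin, had 0 and 21.4 CPM early and 103, 451 and 522 later (log2 fold change 5.08, SE 1.45, edgeR adjusted p = 0.0472).

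Genes of the hormone granule moved with the hormones. Chga, chromogranin A, had 5.76 and 53.1 CPM early and 205, 669 and 733 later (log2 fold change 4.13, SE 0.99, edgeR adjusted p = 0.0324). Scg2, secretogranin II, had 0.125 and 7.33 and then 19.6, 145 and 200.4, and was 10.2 times as high at day 4 as at day 2. Reg4, a lectin of enteroendocrine and secretory cells, had 8.27 and 19.3 against 72.7, 241 and 410.3, but at day 0 its number 2 library held 9.29 and its number 1 library 0.223. Chga and Cck were likewise higher in the number 2 library at day 0, by 5.51 and 15.0 times.

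Enterocyte genes came and went within the commitment phase. Of 51 tested, 11 were called higher and 1 lower (Cdx2, an intestinal transcription factor, from 104 and 75.7 to 56.2, 55.7 and 58.9 CPM), with a median log2 fold change of 0.88. Their sum was 8659.9 and 14793 CPM at days 0.25 and 1, reached 35302 at day 2 and was 18031 at day 3 and 10799 at day 4, so that day 4 lay within the range of the early libraries. Days 2 to 4 carried the same number, and these 3 libraries were not tested against each other. In the 17-library fit 12 of the 51 were called higher, against 5.07% of all genes tested there, and the median was 1.52.

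Fabp1 (chr6:71199827-71205023, plus strand), the liver-type fatty acid binding protein, had 889 and 1222 CPM early, 2980.2 at day 2, 891 at day 3 and 319 at day 4. It was 0.107 times as high at day 4 as at day 2 (exact 95% interval 0.103 to 0.112) and not called (edgeR adjusted p = 0.762). Alpi, the brush border alkaline phosphatase, ran the same course with 84.2 and 285 and then 605, 272 and 101. Other enterocyte genes kept more of their day 2 level and were called higher. Apoa4, an apolipoprotein of lipid export, had 43.5 and 81.8 early and 671, 357 and 329 later (log2 fold change 2.80, SE 0.45, edgeR adjusted p = 0.0239). Apoa1, of the same cluster, had 24.3 and 68.8 against 734, 491 and 359 (log2 fold change 3.46, SE 0.55, edgeR adjusted p = 0.0239).

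Among called genes with at least 100 CPM in a commitment library, the 5 lowest ratios of day 4 to day 2 were all of genes known from absorptive cells or from drug and nutrient handling. They were Cyp2c29 at 0.340, Ggt1 at 0.428, Cyp2d26 at 0.449, Slc2a5, the fructose transporter, at 0.453 and Apoa1 at 0.489. Cyp2c29, a cytochrome P450, had 66.9 and 222 CPM early and 2058, 918 and 700.1 later. The 5 highest ratios belonged to Gcg, Ang4, Scg2, Gm14851 and Defa22, which are Paneth and enteroendocrine genes.

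Secretory cells need a large endoplasmic reticulum (ER), and its folding and export genes rose by small steps. Of 42 listed and tested, 20 were called higher and none lower, with a median log2 fold change of 0.54, and 12 were called higher in the 17-library fit. Sdf2l1, an ER chaperone cofactor, had 32.2 and 32.6 CPM early and 59.5, 79.9 and 98.4 later (log2 fold change 1.20, SE 0.21, edgeR adjusted p = 0.0239). Xbp1, the transcription factor that expands the ER, rose from 165 and 178 to 268, 306 and 335 (log2 fold change 0.74, SE 0.17, edgeR adjusted p = 0.0301), and its day 0 libraries of 167 and 159 were alike. Hspa5, the chaperone BiP, had 1401 and 1230.4 against 1630.4, 1885 and 2172 and was not called (edgeR adjusted p = 0.214).

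The ER stress element, bound by NF-Y and ATF6 and searched as CCAAT followed after 9 bases by CCACG, was present on either strand in 7 of the 31 ER genes with a window (22.6%), compared with 0.151% of the tested genes and 0.130% of all windows, and it contains the CCAAT counted above. Of the 3 called members that held it in the 200 bases before the start, Creld2 (chr15:88819446-88819645, plus strand) and Pdia6 (chr12:17266389-17266588, plus strand) are shown with the element in capitals, which lies on the other strand in Creld2.
Creld2: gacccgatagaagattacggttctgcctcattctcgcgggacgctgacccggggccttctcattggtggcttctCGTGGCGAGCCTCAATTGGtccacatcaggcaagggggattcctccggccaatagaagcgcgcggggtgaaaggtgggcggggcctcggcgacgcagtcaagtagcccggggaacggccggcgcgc
Pdia6: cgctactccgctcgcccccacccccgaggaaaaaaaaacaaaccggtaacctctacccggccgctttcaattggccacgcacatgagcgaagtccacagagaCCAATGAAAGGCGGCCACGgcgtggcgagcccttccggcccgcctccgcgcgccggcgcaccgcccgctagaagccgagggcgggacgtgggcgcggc
Creld2, an ER protein with isomerase activity picked here for its promoter, had 46.6 and 59.6 CPM early and 90.9, 93.6 and 120.2 later (log2 fold change 0.86, SE 0.18, edgeR adjusted p = 0.0264). Pdia6, a protein disulfide isomerase picked likewise, had 217 and 219 against 352, 447 and 527 (log2 fold change 0.93, SE 0.21, edgeR adjusted p = 0.029). The element began 126 bases before the start of Creld2 and 98 bases before that of Pdia6.

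Ribosomal protein genes moved the other way, with 45 of 79 tested called lower, none higher and a median log2 fold change of -0.88. Their sum was 37477 and 37217 CPM in the early libraries and 26494, 20961 and 21161 in the commitment libraries, while the day 0 libraries held 28807 and 35946 and those of day 6 held 16601 and 17163. The commitment libraries lay under both early libraries and under both day 0 libraries. In the 17-library fit 16 were called lower.

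Other lists carried little of the change or went with the number. Of 17 tested mitochondrially encoded genes 7 were called lower, with a median log2 fold change of -0.65 that became 0.54 with all 17 libraries and the number as a term. The 7 were all transfer RNA genes at low levels, such as mt-Tp with 15.3 and 5.90 CPM early and 1.85, 0.997 and 1.14 later, and its day 0 libraries differed in the same direction at 9.37 and 3.46. Of 17 immediate early and heat shock genes 4 were called higher (Fosb, Junb, Atf3 and Dusp1) and 1 lower (Hspa8, a constitutive chaperone). Fosb, an immediate early transcription factor of dissociated and stimulated cells, had 134 and 133 CPM against 343, 306 and 402, but its day 0 libraries were 105 and 261. The 9 tested genes of regenerative epithelium had a median log2 fold change of 0.77, with 2 higher and 1 lower at an unadjusted p under 0.05 and edgeR adjusted p-values above the threshold. Markers of other cells were nearly absent, with sums between 3.88 and 10.5 CPM for 15 tuft genes, 8.02 and 34.9 for 16 immune genes and 6.14 and 10.8 for 14 stromal and endothelial genes. The only one of these called was Lyz2, at 2.25 and 4.07 against 9.18, 15.5 and 31.4, which is nearly identical to Lyz1.

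Among the 10 largest decreases of called genes with at least 50 CPM stood 2 genes that followed the number at day 0. Gm10800, a predicted gene, had 99.5 and 139 CPM early and 1.37, 4.99 and 8.13 later, and its day 0 libraries held 59.4 and 3.46. Rpph1, the RNA component of ribonuclease P, had 131 and 35.4 against 15.4, 14.7 and 14.7, and at day 0 it had 324 and 43.1. By contrast Kcnn4, a calcium-activated potassium channel, had 97.1 and 45.2 early and 8.10, 4.11 and 4.13 later (log2 fold change -3.76, SE 0.44, edgeR adjusted p = 0.0239), with day 0 libraries of 67.2 and 65.3. Far2, a fatty acyl reductase, had 99.2 and 64.7 against 17.0, 13.8 and 9.69, with 90.4 and 82.9 at day 0.

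The spread over cells was described after each cell was thinned to 2000 UMIs, which left 1097, 777, 1430, 1471 and 1538 cells at days 0.25, 1, 2, 3 and 4. Cells of 1 library are not replicates, so these shares carry no test. The mean share of a cell's UMIs that came from Paneth genes was 0.396%, 0.837%, 2.84%, 5.80% and 11%, whereas the median was 0.05%, 0.05%, 0.25%, 0.45% and 1.35%. The 90th percentile was 0.40% at day 0.25, 1.25% at day 1, 20.4% at day 3 and 31.7% at day 4. Without thinning the mean shares were 0.390%, 0.819%, 2.84%, 5.80% and 11%. The rise was thus carried by a part of the cells, and the 10% of cells with the highest share held 81.0% of all Paneth UMIs at day 0.25, 58.4% at day 2 and 33.0% at day 4.

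**Figure D3:**
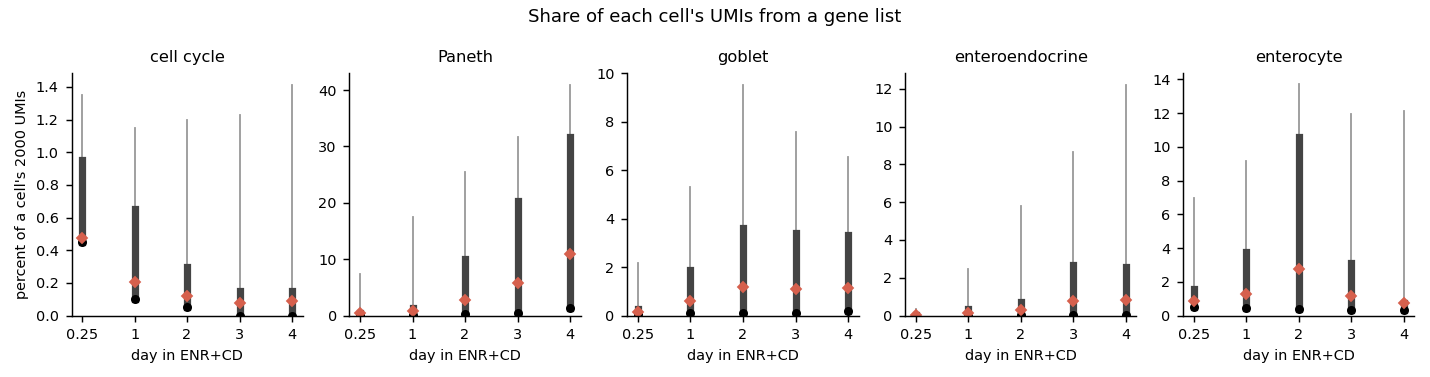
Share of each cell's UMIs from 5 gene lists (y axis, percent, linear) in the 5 libraries by day (x axis), after thinning to 2000 UMIs, where the dot is the median cell, the thick line reaches the 90th percentile, the thin line the 99th and the red diamond is the mean. The Paneth 90th percentile went from 0.40% at day 0.25 to 31.7% at day 4, and the enterocyte 90th percentile was highest at day 2 at 10.56%. The cell cycle median went from 0.45% at day 0.25 to 0 at day 4, where it was 0.0279% without thinning.

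Cell cycle UMIs became rarer in the typical cell and more concentrated. The median share after thinning was 0.45% at day 0.25, 0.10% at day 1, 0.05% at day 2 and 0 at days 3 and 4. Without thinning the medians were 0.470%, 0.0761%, 0.0295%, 0.0248% and 0.0279% over the 5 days, so the typical cell at days 3 and 4 was low rather than without these UMIs. The top 10% of cells held 23.6% of the list's UMIs at day 0.25, 43.5% at day 1 and 66.7%, 69.9% and 70.4% at days 2, 3 and 4. Enterocyte UMIs had a 90th percentile of 1.55%, 3.75%, 10.56%, 3.10% and 0.715% over the 5 days. Enteroendocrine UMIs were rarer, and their 99th percentile was 0.35%, 2.45%, 5.81%, 8.68% and 12.2%.

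In the 10% of cells richest in Paneth UMIs, the other lists differed from the remaining cells of the same library. Their cell cycle share was 0.347% at day 0.25 and 0.021% at day 4, compared with 0.488% and 0.099% in the other cells. Their ER share at day 2 was 2.08% against 1.07%. Their enteroendocrine share was higher at day 0.25, at 0.051% against 0.019%. It was lower at days 1, 2, 3 and 4, with 0.127% against 0.884% at day 4. At day 4 Paneth UMIs made up 36.2% of the UMIs of these cells against 8.19% in the others, which lowers the share left for every other list. The goblet share of these cells was higher at each of the 5 days, with 2.60% against 1.02% at day 2 and 1.76% against 1.05% at day 4. Free RNA gives UMIs in cells that do not express a gene. As a measure of it, the 10% of cells richest in enterocyte UMIs held mean Paneth shares of 0.088%, 0.110%, 0.121%, 0.202% and 1.70% over the 5 days. Their median depths were 6007.5, 6741, 9574, 8226 and 4570.5 UMIs before thinning. On days 0.25 and 1 the median Paneth share of all cells, 0.05%, lay under these means. A median lies under the mean when few cells hold most UMIs, so this does not show that the typical cell was at background. At day 4 the cells richest in enterocyte UMIs held as little as 0.75% of them. Their Paneth share was then 3.04% at 1000 UMIs and 1.28% without thinning, so no background level is read from that day.

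The same days with KPT-330 gave a contrast from 6 other libraries, of which 1 at day 3 carried the number 1 within the commitment phase. Of 11685 genes tested by edgeR, 1617 were called higher (13.8%) and 1644 lower (14.1%). Of the 1161 genes called higher without KPT-330, 1075 were tested in both contrasts, 1061 had the same sign (98.7%) and 697 were called in the same direction, which is 64.8% of those tested in both and 43.1% of the KPT-330 calls. Of the 1498 called lower, 1456 were tested in both, 1447 had the same sign (99.4%) and 1091 were called (74.9%, and 66.4% of the KPT-330 calls), and no gene was called in opposite directions. The contrasts share no library, but the early libraries of both carried the number 1.

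List medians with KPT-330 were -2.67 for the cell cycle, 4.08 for Paneth, 2.16 for goblet, 2.54 for enteroendocrine and 1.76 for enterocyte genes. The Wnt target list moved less, with a median of 0.29 against 1.03 without KPT-330, and 6 of 16 tested genes were called higher and 1 lower. The sum of the Paneth genes was 5753 and 8267 CPM early and 34087, 110330.0, 86325 and 178289 at day 2, in the 2 libraries of day 3 and at day 4. Of these, 110330.0 was the day 3 library numbered 1 and 86325 the one numbered 2. The cell cycle list had 471 and 268 in the same 2 libraries, against 3453 and 1826 in the early ones. Only 1 commitment library carried the number 1, and the part of the number in these levels was not tested. The enteroendocrine sum reached 4339 at day 4 with KPT-330 and 7410.5 without. The difference of the contrast with and without KPT-330, tested as an interaction over 12045 genes, gave no call in edgeR (557 genes at an unadjusted p under 0.05) and none in DESeq2 (513), so a difference between the contrasts was not detectable here.

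**Figure D4:**
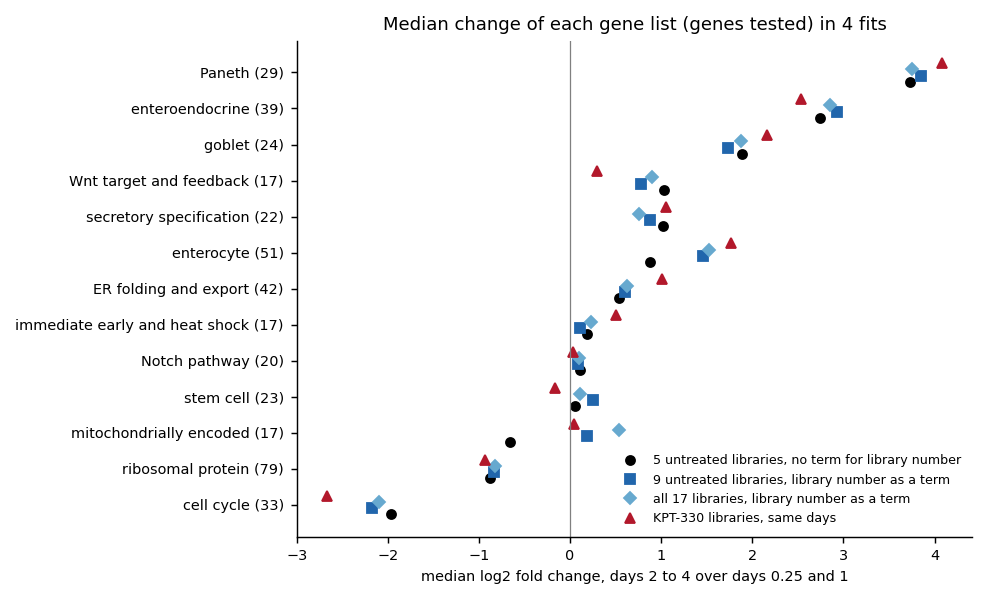
Median log2 fold change of commitment over early libraries (x axis) for each gene list (y axis) in 4 fits. These were the 5 untreated libraries, the 9 untreated libraries with the library number as a term, all 17 with that term, and the KPT-330 libraries. The cell cycle medians lie between -2.67 and -1.97 and the Paneth medians between 3.73 and 4.08, whereas the median of the mitochondrially encoded genes changes sign between fits and that of the stem cell genes is -0.17 with KPT-330 and above 0 in the other fits.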

How the data were processed

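Single cells of 17 Seq-Well S3 libraries of mouse small intestinal organoids were measured as raw UMI counts per gene and cell. The authors deposited these counts after demultiplexing with bcl2fastq, STAR alignment to mm10 and the Drop-seq pipeline, with no normalization, and of their merged table only the names of the cells they had kept were used here (500 or more genes, at most 30000 UMIs and 35% mitochondrial UMIs, doublets removed by the authors). In the cells compared, 7511600 of 7513506 deposited values were equal in both tables. Columns of unmapped samples numbered 0.

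Counts were summed over kept cells per library (4912283 to 10244387 UMIs in the 5 libraries compared) and given per 1000000 UMIs (CPM). Groups came from the sample labels. Phases were compared with edgeR 4.0.16 (TMM, filterByExpr, quasi-likelihood test, two-sided, Benjamini-Hochberg) in R 4.3.3, with DESeq2 1.42.0 as an alternative. The p-values measure the spread between days and may be partly technical. Time points served as replicates of a phase. Other alternatives were RLE scaling, totals without Paneth, ribosomal protein and mitochondrially encoded genes, no or stricter filters, all barcodes and thinned cells. Each library was also left out, the library number was used as a block, and log2 day replaced phase. The labels do not say what the library number marks. Scripts were tested on simulated data. Intervals are exact 95% intervals for counting error only, and 3 UMIs served as the floor for a count of 0.

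Genes named were key markers, the 4 called list members of smallest p, the 10 largest changes in each direction with at least 50 CPM, and the 5 extreme ratios between days among genes with at least 100 CPM. Members and lists were chosen with earlier results of these data known. Promoter windows are from RefSeq on GRCm38.p6, with 9241 of the 12493 tested genes matched, and gene positions are from GENCODE on GRCm38.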

Additional observations from a re-analysis of the deposited data

How the results depend on the processing

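With the 5 libraries compared, scaling by RLE or by totals that leave out Paneth, ribosomal protein and mitochondrially encoded genes, DESeq2, a minimum of 50 UMIs, all barcodes, deeper cells and thinned cells each gave between 849 and 1629 genes higher and between 1101 and 1720 lower. Without the filter on low counts 2234 genes were called higher and 2012 lower of 22162 tested, which moved the share of higher calls from 43.7% to 52.6%. Leaving out 1 library gave 0 to 1597 genes higher and 0 to 2036 lower, with 0 in both directions without day 0.25, day 3 or day 4 (the cause was not tested), 1471 and 1449 without day 2 and 1597 and 2036 without day 1. A model on log2 day gave 2372 and 2658. The 9 untreated libraries without a block on the library number gave 1851 and 2063. The number block over these 9 libraries gave 0 and 0 (1331 and 1496 at an unadjusted p under 0.05, smallest edgeR adjusted p 0.116). The number block over all 17 libraries gave 658 and 746. The numbers do not pair early with commitment libraries, so the block was set by days 0 and 6 and, among 17 libraries, by day 3 with KPT-330. With KPT-330, leaving out 1 library gave 11 to 1711 genes higher and 4 to 1782 lower, the lowest without its day 0.25 library.

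The median log2 fold change of the mitochondrially encoded list, -0.65, became 0.0501 with a minimum of 50 UMIs. It became 0.19 with the number block over 9 libraries and 0.54 with the number block over 17. All 87 called genes among the 103 selected by rule had the same sign in every alternative run. The Paneth share of the cells richest in enterocyte UMIs at day 4 was 1.70% at 2000 UMIs, 3.04% at 1000 and 1.28% without thinning. One library per day limits what can be said of any single day, and part of the early libraries' longer gene lists came from genes with a UMI only in number 1 libraries, 1528 genes and 256 CPM at day 0.25 and 1274 genes and 337 CPM at day 1.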
